A study of Homo sapiens with 24 samples.

Results

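Keratins are the intermediate filament proteins of epithelial cells, and the transcripts of 10 of them were followed here in 3D cultures of a human mammary epithelial line before and after activation of MYC. KRT5, KRT14, KRT15 and KRT17 are typical of the basal layer of stratified and mammary epithelium. KRT7, KRT8, KRT18 and KRT19 are typical of simple epithelium and of luminal mammary cells. KRT23 is a further type I keratin, and KRT81 is a hair keratin of type II. The genes were taken by symbol from the table of gene counts, through their Ensembl identifiers without the version, and they are 10 of its 60668 entries. All 10 were among the 22158 genes left after the filter on low counts, although KRT23 never had more than 47 counts in a library.

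The 24 libraries came from MCF-10A, a line of immortalised breast epithelial cells, and from MCF-10A MYC-ER, the same line with a MYC protein fused to the ligand-binding portion of an oestrogen receptor. They are called parental and MYC-ER cells below. The fusion protein is designed to stay inactive until 4-hydroxytamoxifen (4-OHT) binds it, and whether it was fully inactive at 0 h was not tested. The parental groups received the drug without having the fusion. Both lines grew on Matrigel, a basement membrane extract reduced in growth factors, with 1 µM 4-OHT for the last 0, 8, 24 or 48 h of culture, and all groups were collected together. Each of the 8 groups has 3 replicates, which the labels describe as wells seeded in parallel, so the p-values measure the spread between these samples, which may be technical. The labels do not say whether the MYC-ER cells are 1 clone, what drives the fusion, or what the 0 h cells received in place of 4-OHT.

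A keratin filament is assembled from pairs of 1 type I and 1 type II chain, so an epithelium needs both types. KRT5 pairs with KRT14 in basal cells, and KRT8 pairs with KRT18 in simple epithelium. KRT15 and KRT17 are other type I chains of basal cells: KRT15 is known from resting basal and hair bulge cells, and KRT17 from skin appendages and wound edges. In the mammary gland KRT5 and KRT14 mark the outer basal layer, and KRT8, KRT18 and KRT19 mark the inner luminal layer. MCF-10A cells are known to carry basal keratins with some luminal ones.

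On GRCh38 with the GENCODE annotation the type I genes lie together on chromosome 17 and the type II genes on chromosome 12, apart from KRT18. KRT15 is at chr17:41513743-41522529, KRT19 at chr17:41523617-41528308, KRT14 at chr17:41582279-41586921, KRT17 at chr17:41619441-41624842 and KRT23 at chr17:40922696-40937634, all on the minus strand. KRT5 is at chr12:52514575-52520687 and KRT81 at chr12:52285913-52291534 on the minus strand, and KRT7 is at chr12:52232520-52252186 on the plus strand. KRT18, a type I gene, lies on the plus strand of chromosome 12 at chr12:52948871-52952901, where its start overlaps the gene model of its partner KRT8 (chr12:52897187-52949954, minus strand). The table has 1 count per gene, and the principal transcripts have 6 (KRT19) to 9 exons.

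Keratin genes resemble each other, so the principal transcripts of the 10 were searched for 150-base windows, the length of a read, that another gene also holds. KRT5, KRT15, KRT17, KRT8, KRT19 and KRT23 had none. KRT14 shared 9 of its 1513 windows (0.595%) with KRT16, a keratin of stressed epidermis, and KRT81 shared 456 of 1780 (25.6%) with KRT86, another hair keratin, through a run of 605 identical coding bases. On the opposite strand, KRT7 shared 77 windows (4.8%) with the antisense gene KRT7-AS and KRT18 shared 155 (11%) with KRT8. The longest run that KRT14 shares with KRT16 is shown because it is where reads of KRT14 could be assigned to another gene. It spans coding bases 310 to 467 of KRT14, 158 bases, and the matching bases 217 to 374 of KRT17 differ from it at 18 positions, which are in capitals.
KRT14: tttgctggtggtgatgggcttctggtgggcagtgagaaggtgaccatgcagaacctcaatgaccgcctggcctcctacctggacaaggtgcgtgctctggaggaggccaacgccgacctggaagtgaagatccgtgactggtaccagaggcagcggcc
KRT17: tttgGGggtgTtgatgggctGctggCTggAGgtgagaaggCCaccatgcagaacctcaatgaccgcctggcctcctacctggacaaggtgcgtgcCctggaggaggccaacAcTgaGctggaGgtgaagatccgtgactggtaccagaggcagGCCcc
The differing bases leave no 150-base window of KRT17 in common with KRT14. How reads that match several genes were counted is not given in the sources used here, so values of KRT81, and to a smaller degree KRT14, are uncertain by what KRT86 and KRT16 could contribute. KRT83 and KRT86 together held 0.639 to 1.24% of the summed counts of KRT81, KRT83 and KRT86. Pseudogenes named after KRT8 held 3.7 to 14.9% of the counts of KRT8 plus its pseudogenes, those of KRT17 held 0.0583 to 2.03% and those of KRT18 held 0.114 to 0.72%.

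Library totals ran from 136860029 to 182438505 counts. KRT5 ranked between first and sixth among all genes by count, and the 10 keratins took 1.14 to 2.74% of a library. The closest library by profile came from the same group in 23 of 24 cases. Mitochondrial transcripts took 9.24 to 9.71% of counts in MYC-ER cells at 0 h and 3.86 to 7.78% in the other libraries, and the part of this difference in the results below was not tested. Parental 0 h replicate 2 was lower than the other parental 0 h libraries in all 10 keratins. Several results that use the parental 0 h group are also given without it, and others are not.

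Marker lists of other cell types were read beside the keratins. All 13 basal markers were tested, with summed levels of 6606 to 6902 CPM (counts relative to TMM-scaled library totals) in untreated MYC-ER cells, 15355 to 16488 after 8 h, 8968 to 9709 after 24 h, 7070 to 7176 after 48 h and 12749 to 19001 in parental cells. The higher sum at 8 h was not shared by the set. Of the 13, 5 were higher and 7 lower than at 0 h, against 32.2% and 35.4% of all genes, with a median log2 change of -0.22. S100A2 and LAMB3 were among those that rose. Of 16 luminal markers 10 were tested, with sums of 153 to 226 CPM over all libraries. Among the luminal markers that were not tested, KIT, PGR and TFF1 had 0 counts in every library, where the limit of 3 counts is at most 0.0217 CPM. Of 6 markers of contractile myoepithelial cells 5 were tested, with sums of 10.8 to 30.1 CPM, and the defining marker CNN1 had at most 12 counts. Of 7 fibroblast markers 4 were tested. Their sum was 369.6 to 377 CPM in MYC-ER cells at 0 h and 77.3 to 133 CPM elsewhere, almost all of it COL1A1 and DCN, while COL1A2, COL3A1 and PDGFRA had at most 10 counts. Whether cells within these cultures differ in such markers, and what part that has in the keratin levels, was not tested. In such bulk samples fewer cells with a transcript and less of it per cell cannot be told apart.

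The first comparison asks how the keratins of the MYC-ER cells stood before 4-OHT. The most abundant of them, KRT5, was at a similar level in both lines, while its usual partner KRT14 was 15.5-fold lower in MYC-ER cells. KRT17, KRT7, KRT18, KRT19 and KRT81 were also lower, and KRT15 and KRT8 were higher. In all, 8 of 10 keratins passed the threshold (adjusted p below 0.05 in edgeR's quasi-likelihood test, with Benjamini-Hochberg adjustment over all genes tested), 2 higher and 6 lower, against 64.3% of all genes (31.6% higher and 32.7% lower). All 8 differed at least 2-fold, as did 28.6% of all genes. The median log2 difference was -1.41 over the keratins and 0 over all genes.

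KRT14 read 603, 624 and 650.2 CPM in the MYC-ER replicates at 0 h and 10724, 7571 and 10876 CPM in the parental ones. The groups stood far apart, with a log2 difference of -3.96 (SE 0.12, adjusted p 1.29e-17). KRT17 read 325, 313 and 331 CPM against 2343, 1638 and 2447 CPM, a log2 difference of -2.73. KRT81, the hair keratin, showed the same order, with 87.7, 81.6 and 88.0 CPM against 495, 382 and 555 CPM (-2.48). The simple keratins split: KRT8 was 2.22-fold higher in MYC-ER cells and its partner KRT18 was 3.10-fold lower. KRT8 read 117.4, 119 and 126 CPM against 60.8, 43.5 and 58.9 CPM, and KRT18 read 91.2, 97.0 and 103 CPM against 322, 236 and 345 CPM. KRT15 was 2.46-fold higher in MYC-ER cells, at 727, 855 and 862 CPM against 354, 281 and 359 CPM. KRT7, a type II simple keratin, was 2.27-fold lower (log2 difference -1.18, or -0.75 with trends on GC content and transcript length removed). KRT5 read 12351, 12798 and 12431 CPM against 13738, 11991 and 14120.0 CPM. These values overlapped, and the log2 difference of -0.08 did not pass the threshold (adjusted p 0.351). With trends on GC content and transcript length removed it became 0.20 in the other direction (adjusted p 0.0142).

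**Figure D1:**
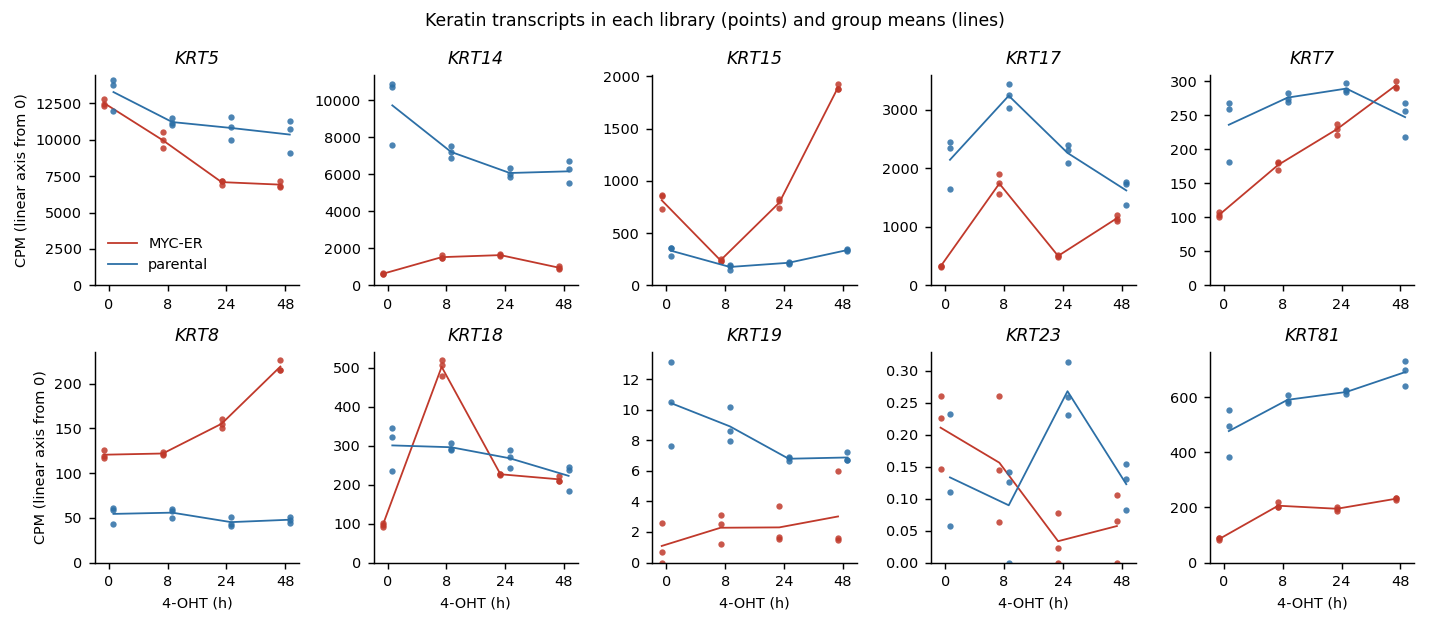
Level of each of the 10 keratins in every library, in CPM on linear axes that start at 0, against hours of 4-OHT (the times are evenly spaced on the axis and not to scale). Points are libraries, 3 per group, and lines join group means, red for MYC-ER and blue for parental cells. KRT18 and KRT17 peak at 8 h in MYC-ER cells, KRT15 dips at 8 h and is highest at 48 h, KRT5 falls, and KRT14 stays below all parental libraries.

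After 4-OHT the keratins of MYC-ER cells moved on different courses. At 8 h KRT18 rose 5.18-fold, KRT17 5.38-fold, KRT14 2.44-fold and KRT81 2.40-fold, while KRT15 fell 3.40-fold. At 48 h KRT15 stood 2.33-fold above its level at 0 h, KRT17 3.54-fold and KRT7 2.83-fold, and KRT5 had fallen 1.81-fold. At 8 h, 7 of the 10 passed the threshold, 5 higher and 2 lower, against 67.6% of all genes (32.2% higher and 35.4% lower). At 24 h it was 8, 6 higher and 2 lower, against 61.6% (30.4% and 31.2%), and at 48 h 8, 7 higher and 1 lower, against 44.1% (23.4% and 20.7%). At each time 5 of the 10 changed at least 2-fold and passed, against 34.7%, 27.5% and 13.4% of all genes at 8, 24 and 48 h. The median log2 change of the keratins was 0.92, 0.86 and 1.18 at the 3 times, and that of all genes -0.10, -0.02 and 0.03. These 3 comparisons share the 0 h libraries. Scaling by library size alone in place of TMM moves all log2 changes of a comparison together, by -0.09 at 8 h, 0.12 at 24 h and 0.16 at 48 h in MYC-ER cells and by 0.21 from 8 to 24 h.

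KRT5, the type II keratin of basal cells, fell at each time. Its MYC-ER replicates read 12351, 12798 and 12431 CPM at 0 h, 9954, 9427 and 10532 at 8 h, 7186, 6928 and 7169 at 24 h, and 7183, 6818 and 6763 at 48 h. No 4-OHT group overlapped the 0 h group, and the 24 and 48 h groups overlapped each other. The log2 change was -0.33 (SE 0.08, adjusted p 0.000769) at 8 h, then -0.82 and -0.86 at 24 and 48 h. The step from 8 to 24 h was -0.49 (adjusted p 1.3e-05), or -0.28 under library size alone, and the step from 24 to 48 h, -0.04, did not pass the threshold (adjusted p 0.728). KRT5 was the most abundant of the 10 in every group by CPM and per coding kilobase, but per kilobase of whole transcript KRT14 stood above it in parental cells at 0 h (5851 ± 1123 against 5248 ± 448.5 CPM per kilobase; SD, n = 3).

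KRT14, the type I partner of KRT5, moved the opposite way. In the MYC-ER replicates it read 1489, 1452 and 1629 CPM at 8 h, 1637, 1593 and 1671 at 24 h, and 1039, 929 and 885 at 48 h, against 603 to 650.2 at 0 h. All 9 libraries with 4-OHT were above the 3 without. At 8 h the log2 change was 1.28 (SE 0.10, adjusted p 3.64e-10), at 24 h 1.38, and at 48 h 0.60 (SE 0.10, adjusted p 5.26e-05). The step from 8 to 24 h, 0.10, missed the threshold (adjusted p 0.428) and was 0.31 under library size alone (adjusted p 0.00481). KRT14 fell again between 24 and 48 h, by 0.78 on the log2 scale (adjusted p 1.28e-06). Even at its highest, KRT14 in MYC-ER cells was 3.72-fold below parental cells at the same time. KRT16, with which KRT14 shares the run above, went the other way in the same cells, from 3156 CPM at 0 h to 566 at 8 h, 64.8 at 24 h and 141 at 48 h.

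KRT15 fell and then rose. Its MYC-ER replicates read 727, 855 and 862 CPM at 0 h, 235, 231 and 252 at 8 h, 745, 803 and 827 at 24 h, and 1879, 1875 and 1929 at 48 h. The 8 h libraries lay below all others of that line and the 48 h libraries above all others, while the 0 and 24 h libraries overlapped. Relative to 0 h, KRT15 had a log2 change of -1.77 at 8 h (SE 0.10, adjusted p 5.51e-13) and of 1.22 at 48 h (SE 0.10, adjusted p 9.12e-10). At 24 h it was -0.04 (adjusted p 0.732), with a sign that varied between settings. From 8 to 24 h KRT15 rose by 1.72 and from 24 to 48 h by a further 1.26 on the log2 scale, both past the threshold.

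KRT17 rose, fell and rose again. The MYC-ER replicates read 325, 313 and 331 CPM at 0 h, 1748, 1560.5 and 1903 at 8 h, 518, 483 and 506 at 24 h, and 1205, 1131 and 1099 at 48 h. No 2 of these 4 groups overlapped. Relative to 0 h, the log2 changes at 8, 24 and 48 h were 2.43, 0.64 and 1.83 (SE 0.12 each, adjusted p 8.44e-14, 5.44e-05 and 3.34e-11). The fall from 8 to 24 h, -1.79, and the rise from 24 to 48 h, 1.19, both passed the threshold. KRT15 and KRT17 thus moved in opposite directions from 0 to 8 h and from 8 to 24 h, and in the same direction from 24 to 48 h.

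Among the simple keratins, KRT18 had a single early peak. Its MYC-ER replicates read 91.2, 97.0 and 103 CPM at 0 h, 520.2, 480.2 and 508 at 8 h, 228, 225 and 227 at 24 h, and 222, 209 and 211 at 48 h. The 8 h libraries were above every other library of both lines. The log2 change was 2.37 (SE 0.11, adjusted p 3.95e-14) at 8 h, then 1.23 and 1.14 at 24 and 48 h. The fall from 8 to 24 h was -1.15 (adjusted p 8.18e-09). Its type II partner KRT8 rose late. The KRT8 replicates read 117.4, 119 and 126 CPM at 0 h, 124, 121 and 121 at 8 h, 160.3, 150.3 and 155 at 24 h, and 227, 216 and 215 at 48 h. The 0 and 8 h libraries overlapped (log2 change 0.02, adjusted p 0.897). At 24 h the change was 0.36 (SE 0.10, adjusted p 0.00281) and at 48 h 0.86 (SE 0.10, adjusted p 2.62e-07). KRT18 and KRT8 overlap at their starts on opposite strands, and the strand setting of the counting is not given in the sources used here.

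KRT7, a type II keratin of simple and glandular epithelium, rose in steps. Its MYC-ER replicates read 101, 103 and 108 CPM at 0 h, 182.1, 169.8 and 179.5 at 8 h, 238, 230.2 and 221 at 24 h, and 292, 290.1 and 300.1 at 48 h, and no 2 groups overlapped. The log2 change from 0 h was 0.77, 1.14 and 1.499 (SE 0.10 each, adjusted p 4.31e-07, 1.16e-09 and 4.79e-11). The steps from 8 to 24 h (0.37) and from 24 to 48 h (0.36) also passed the threshold. The first step was 0.58 under library size alone and the second was 0.21 with trends on GC content and length removed, both past the threshold.

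KRT81 rose early and then stayed near that level. Its MYC-ER replicates read 87.7, 81.6 and 88.0 CPM at 0 h, 200.0, 201 and 218 at 8 h, 203, 188 and 194 at 24 h, and 233, 228 and 233 at 48 h. The 3 groups with 4-OHT were each above the 0 h group, with log2 changes of 1.27, 1.19 and 1.43 (SE 0.09 each, adjusted p 2.31e-11, 8.6e-11 and 1.31e-11). The 8 and 24 h groups overlapped, and the later rise of 0.25 from 24 to 48 h (adjusted p 0.0202) became 0.10 (adjusted p 0.118) with trends on GC content and length removed. The call was also lost when MYC-ER 24 h replicate 2 was left out (0.22, adjusted p 0.0769) or replicate 3 (0.24, adjusted p 0.0536), or MYC-ER 48 h replicate 1 (0.24, adjusted p 0.0514) or replicate 3 (0.24, adjusted p 0.0511). Summing KRT81 with KRT83 and KRT86 changed no call.

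KRT19, a small type I keratin of luminal cells, was low and varied between MYC-ER replicates. KRT19 had 120, 452 and 0 counts in the MYC-ER replicates at 0 h, 431, 355 and 180 at 8 h, 270, 583 and 258 at 24 h, and 1036, 219 and 274 at 48 h. The parental libraries held 966 to 2211. All MYC-ER libraries were below all parental ones in CPM, at 0 to 5.97 against 6.65 to 13.1. The log2 difference between the lines was -3.26 at 0 h (SE 0.77, adjusted p 0.000825), then -1.97, -1.56 and -1.19 at 8, 24 and 48 h (adjusted p 0.0295, 0.078 and 0.163). No change of KRT19 with time passed the threshold, the largest being 1.47 in MYC-ER cells at 48 h (adjusted p 0.114). In parental cells its change of -0.62 at 24 h passed with only the groups compared (-0.61, adjusted p 0.0408). Without MYC-ER 0 h replicate 2, which held the 452 counts, the MYC-ER changes at 8, 24 and 48 h were 2.71, 2.72 and 3.11 (adjusted p 0.00575, 0.00615 and 0.00403). The line difference at 0 h was then -4.90. The difference at 24 h passed with only the groups compared (adjusted p 0.0015), and that at 48 h passed without MYC-ER 48 h replicate 1 (-2.16, adjusted p 0.0298). The difference at 8 h was no longer past the threshold when leaving out MYC-ER 8 h replicate 2 (-2.05, adjusted p 0.0623), MYC-ER 8 h replicate 3 (-1.66, adjusted p 0.114) or parental 8 h replicate 1 (-1.85, adjusted p 0.0704). It also did so with no filter on low counts (-1.96, adjusted p 0.0516) and in DESeq2's Wald test (-1.94, adjusted p 0.0766).

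KRT23 had 0 to 47 counts per library, and its groups overlapped with few exceptions. Its fall of 2.64 on the log2 scale in MYC-ER cells at 24 h (SE 1.008, adjusted p 0.0277) rested on 39, 46 and 25 counts at 0 h and 4, 0 and 12 counts at 24 h. It missed the threshold without any 1 of 4 of these libraries, for example -2.07 (adjusted p 0.1) without MYC-ER 24 h replicate 2, which has 0 counts. The others were MYC-ER 0 h replicate 1 (adjusted p 0.0514), MYC-ER 0 h replicate 2 (adjusted p 0.0643) and MYC-ER 24 h replicate 1 (adjusted p 0.0856). Without MYC-ER 24 h replicate 3 the change was -4.05. The difference from parental cells at 24 h, -2.98, likewise missed it without MYC-ER 24 h replicate 1 (adjusted p 0.0635) or replicate 2 (adjusted p 0.0718).

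Levels of different genes were compared per kilobase of coding sequence, since longer transcripts give more reads. In MYC-ER cells KRT14 stood at 0.0625 ± 0.0025 of KRT5 (SD, n = 3) before 4-OHT, and at 0.191 ± 0.0034, 0.288 ± 0.0034 and 0.172 ± 0.0087 after 8, 24 and 48 h. In parental cells this ratio ran from 0.702 to 0.909. The basal pair was therefore closest to equal levels in parental cells, with all 12 parental libraries between 0.687 and 0.976 and no MYC-ER library above 0.291. KRT18 stood at 0.903 ± 0.026 of KRT8 in MYC-ER cells before 4-OHT, and at 4.63 ± 0.16, 1.64 ± 0.043 and 1.10 ± 0.0063 after 8, 24 and 48 h. In parental cells KRT18 was in 5.21- to 6.67-fold excess over KRT8. The simple pair thus differed from the basal pair: it was closest to equal levels in MYC-ER cells at 0 and 48 h, and at 8 h its libraries, at 4.45 to 4.73, reached into the range of the parental 48 h group (4.68 to 5.60).

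**Figure D2:**
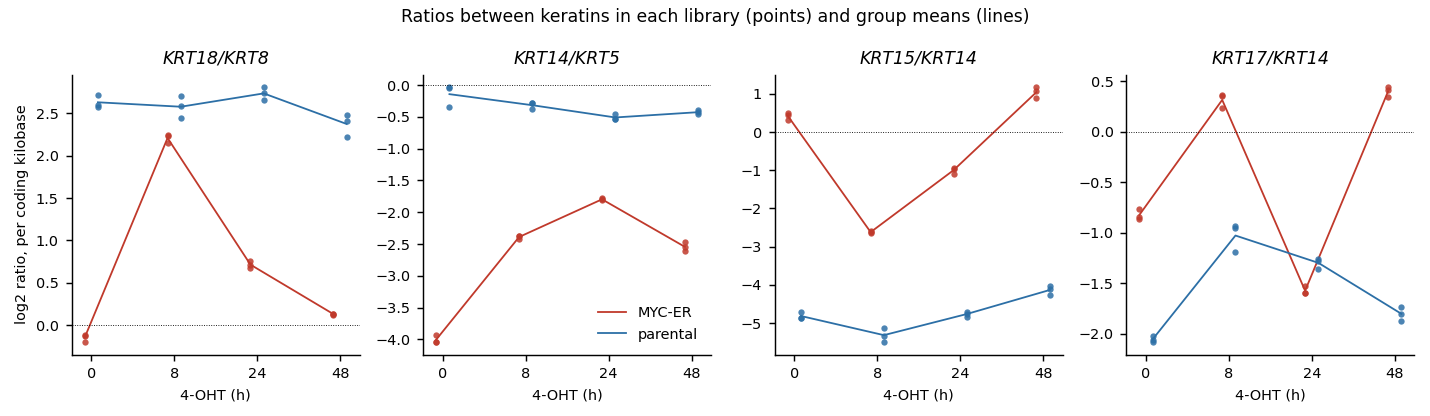
Log2 ratio between pairs of keratins, per coding kilobase, in each library (points) and as group means (lines), red for MYC-ER and blue for parental cells, against hours of 4-OHT (evenly spaced, not to scale). The dotted line at 0 marks equal levels. KRT18 over KRT8 rises to 2.21 at 8 h in MYC-ER cells and returns to 0.13 at 48 h, and KRT15 over KRT14 is above 0 in MYC-ER cells at 0 and 48 h only, a sign that turns per kilobase of whole transcript.

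Per coding kilobase the most abundant type I chain among the members changed with time in MYC-ER cells. KRT15 was 1.35 ± 0.089 times KRT14 at 0 h (SD, n = 3), 0.163 ± 0.0024 at 8 h, 0.502 ± 0.027 at 24 h and 2.07 ± 0.19 at 48 h. Parental groups had KRT15 at 0.0252 to 0.0571 times KRT14. KRT17 was 0.565 ± 0.022, 1.24 ± 0.061, 0.336 ± 0.0086 and 1.32 ± 0.046 times KRT14 at the same 4 times, and 0.240 to 0.492 times in parental cells. By this measure KRT15 was the most abundant type I member in MYC-ER cells at 0 and 48 h, KRT17 at 8 h and KRT14 at 24 h, whereas KRT14 was the most abundant in every parental group. The ranking of KRT15 depends on length, since its principal transcript has 5237 bases against 1368 coding bases. Per kilobase of whole transcript, a scale chosen after seeing the data, KRT15 was below both KRT14 and KRT17 in MYC-ER cells at 0 and 48 h. On that scale it stood at 155.5 ± 14.6 CPM per kilobase at 0 h against 376.5 ± 14.2 for KRT14, and at 361.8 ± 5.71 at 48 h against 572.3 ± 47.9 for KRT14 and 693.5 ± 33.1 for KRT17 (SD, n = 3). Its share of all keratins at 48 h was then 6.23% in place of 15.8%.

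Set against all 55 keratins with a coding length (29 of type I and 26 of type II), the 10 members made up 53.7% ± 0.47 of the summed level per coding kilobase in MYC-ER cells at 0 h (SD, n = 3), 58.1% ± 0.25 at 8 h, 79.5% ± 0.29 at 24 h and 85.9% ± 0.22 at 48 h. They made up 68.2 to 73.9% in parental cells. Their own summed level did not rise in step: in MYC-ER cells it was 8654 ± 179 CPM per coding kilobase before 4-OHT and 8963 ± 534, 6705 ± 121 and 7532 ± 225 after 8, 24 and 48 h. The sum over all keratins was 16104 ± 398 at 0 h and 8764 ± 246 at 48 h. The remainder was mostly KRT10, a keratin of differentiating suprabasal cells, KRT16, and KRT6A, KRT6B and KRT6C, type II keratins of stressed epidermis. KRT10 went from 21.1% of the level at 0 h to 0.659% at 48 h in MYC-ER cells and KRT16 from 13.8% to 1.13%, while the KRT6 genes took 11.02%, 35.1%, 19.0% and 11.8% at the 4 times.

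**Figure D3:**
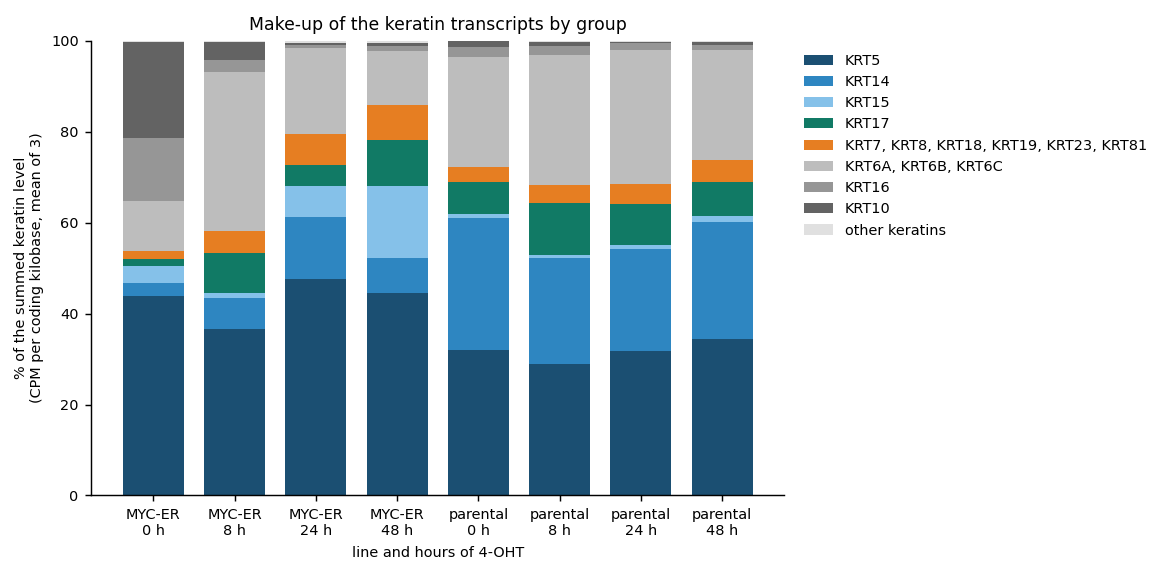
Share of each keratin in the summed keratin level per coding kilobase, as the mean of 3 libraries per group, in percent from 0 to 100. Blue and green segments are basal members, the orange segment the other 6 members, and grey segments keratins outside the 10. The members' share grows from 53.7% to 85.9% in MYC-ER cells from 0 to 48 h and lies between 68.2% and 73.9% in parental cells.

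The simple keratins KRT7, KRT8, KRT18 and KRT19 made up a small part of the simple and basal members together. Their share was 2.71% ± 0.094 per coding kilobase in MYC-ER cells at 0 h (SD, n = 3), 6.83% ± 0.31 at 8 h, 6.82% ± 0.17 at 24 h and 7.16% ± 0.11 at 48 h. Parental groups ran from 2.66 to 3.53%. All 9 MYC-ER libraries with 4-OHT were above all the other libraries. Over the 10 members, the log2 ratio of type I to type II levels was -2.42 ± 0.072, -1.004 ± 0.025, -0.94 ± 0.030 and -0.51 ± 0.00040 in MYC-ER cells at 0, 8, 24 and 48 h, and -0.11 to 0.19 in parental cells. Over all 55 keratins the ratio was -0.39 ± 0.032, -1.52 ± 0.035, -1.34 ± 0.039 and -0.75 ± 0.0018 in MYC-ER cells, so the members alone moved toward balance at 8 h while the whole family moved away from it. Both ratios are per coding kilobase and were not computed per kilobase of whole transcript. On that scale KRT15, a type I chain, stood at 361.8 CPM per kilobase in MYC-ER cells at 48 h in place of 1385. The members' further approach to balance from 8 to 48 h may therefore depend on the length used.

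The parental line shows what happened to the same genes under 4-OHT without the fusion. KRT5, KRT14 and KRT15 were lower at 8 and 24 h and KRT81 was higher at all 3 times, each by less than 2-fold. At 8 h, 5 of 10 keratins passed the threshold, 2 higher and 3 lower, against 31% of all genes (15% higher and 16% lower). At 24 h it was 6, 2 higher and 4 lower, against 42.9% (21.2% and 21.7%), and at 48 h 5, 1 higher and 4 lower, against 40.5% (20.4% and 20.1%). None of the 10 passed with a change of 2-fold or more, against 2.18%, 3.98% and 2.62% of all genes at the 3 times. The counts fell to 1, 3 and 2 when only the 2 groups compared entered the fit. The 3 at 24 h include KRT19 (log2 change -0.61, adjusted p 0.0408), which did not pass in the reported fit. Most parental calls were thus made only with the spread estimated over all 8 groups.

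KRT15 had the largest of these changes at 8 h. Its parental replicates read 354, 281 and 359 CPM at 0 h, 148, 181.9 and 199 at 8 h, 205, 217 and 227 at 24 h, and 329, 349 and 337 at 48 h. The 8 and 24 h groups lay below the 0 h group, with log2 changes of -0.91 (SE 0.10, adjusted p 1.16e-06) and -0.62 (SE 0.10, adjusted p 3.59e-05), and the 48 h group overlapped it (0.03, adjusted p 0.852). These calls held in every alternative fit. KRT15 was thus lower at 8 h and back near its starting level or above it at 48 h in both lines, with larger excursions in MYC-ER cells.

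KRT14 read 10724, 7571 and 10876 CPM in parental cells at 0 h, 6869, 7554 and 7202 at 8 h, 6029, 5835 and 6346 at 24 h, and 5519, 6271 and 6692 at 48 h. Every later library was below every 0 h library, with parental 0 h replicate 2 only just above the highest 8 h library. The log2 changes were -0.43, -0.68 and -0.66 (SE 0.10 each, adjusted p 0.00324, 2.9e-05 and 5e-05). With trends on GC content and length removed they were -0.12 (adjusted p 0.272), -0.20 (adjusted p 0.0423) and -0.23 (adjusted p 0.0241), and with only the groups compared the 8 h call was lost (adjusted p 0.0968). KRT5 fell by 0.24, 0.30 and 0.36 on the log2 scale (adjusted p 0.0212, 0.00363 and 0.000844). With the same trends removed its changes were -0.06 (adjusted p 0.612), -0.004 (adjusted p 0.979) and -0.09 (adjusted p 0.376), and with only the groups compared none passed (adjusted p 0.133, 0.0755 and 0.0873). The 8 h call of KRT5 was also lost when leaving out parental 0 h replicate 1 (adjusted p 0.0764) or replicate 3 (adjusted p 0.105), or parental 8 h replicate 1 (adjusted p 0.0622) or replicate 3 (adjusted p 0.07).

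KRT17 was higher in parental cells at 8 h, with 3242, 3025 and 3442 CPM against 2343, 1638 and 2447 at 0 h, a log2 change of 0.59 (SE 0.12, adjusted p 0.000594). With only the groups compared the adjusted p was 0.0548. At 24 h its change of 0.08 did not pass (adjusted p 0.64), but with trends on GC content and length removed it was 0.48 (adjusted p 0.000204). At 48 h KRT17 was lower (-0.40, adjusted p 0.00729), with values that overlapped those at 0 h. That call was lost with trends removed (-0.04, adjusted p 0.818), with only the groups compared (adjusted p 0.125), and when leaving out parental 0 h replicate 3 (-0.26, adjusted p 0.0892) or parental 48 h replicate 1 (-0.30, adjusted p 0.0558).

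In parental cells KRT81 rose from 495, 382 and 555 CPM at 0 h to 608, 579 and 585 at 8 h, 610.0, 626 and 621 at 24 h and 642, 699 and 733 at 48 h, with no overlap with 0 h at any time. Its log2 changes were 0.31, 0.38 and 0.53, and 0.64, 0.87 and 0.98 with trends removed. Without parental 0 h replicate 2 the first 2 were 0.17 (adjusted p 0.0269) and 0.24 (adjusted p 0.00213), and with only the groups compared they missed the threshold (adjusted p 0.166 and 0.0647). The simple keratins changed little. KRT18 fell by 0.43 at 48 h (adjusted p 0.00258), or 0.14 with trends removed (adjusted p 0.231). KRT8 fell by 0.27 at 24 h (adjusted p 0.034), or 0.01 with trends removed (adjusted p 0.93) and 0.41 without parental 0 h replicate 2. KRT7 rose by 0.29 at 24 h (adjusted p 0.0181), by 0.13 without parental 0 h replicate 2 (adjusted p 0.0899), and by 0.82 with trends removed, where its changes at 8 h (0.58) and 48 h (0.55) also passed. The KRT18, KRT8 and KRT7 calls were lost with only the groups compared (adjusted p 0.0931, 0.21 and 0.151). The KRT8 call was also lost without parental 0 h replicate 1 (adjusted p 0.2) or 3 (adjusted p 0.184), or parental 24 h replicate 1 (adjusted p 0.105) or 2 (adjusted p 0.167), and the KRT7 call without parental 24 h replicate 3 (adjusted p 0.0572).

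The line by time interaction, the change in MYC-ER cells minus that in parental cells, tested whether the lines responded differently. KRT14, KRT17, KRT18, KRT7 and KRT81 had a higher response in MYC-ER cells at each time, KRT8 at 24 and 48 h, and KRT15 a lower one at 8 h and a higher one at 24 and 48 h. KRT5 had a lower response at 24 and 48 h. At 8 h, 6 keratins passed, 5 higher and 1 lower, against 55.2% of all genes (27.3% higher and 27.8% lower). At 24 h it was 9, 7 higher and 2 lower, against 54.5% (27.7% and 26.8%), and at 48 h 8, 7 higher and 1 lower, against 45% (23.6% and 21.4%). The largest at 8 h was KRT18, 2.40 (SE 0.15, adjusted p 1.74e-11), and at 48 h KRT17, 2.23 (SE 0.16, adjusted p 5.03e-10). KRT14 had 1.72, 2.06 and 1.26 at the 3 times, since it rose in MYC-ER cells and fell in parental cells. With trends on GC content and length removed, KRT17 at 24 h missed the threshold (0.16 in place of 0.56, adjusted p 0.289).

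**Figure D4:**
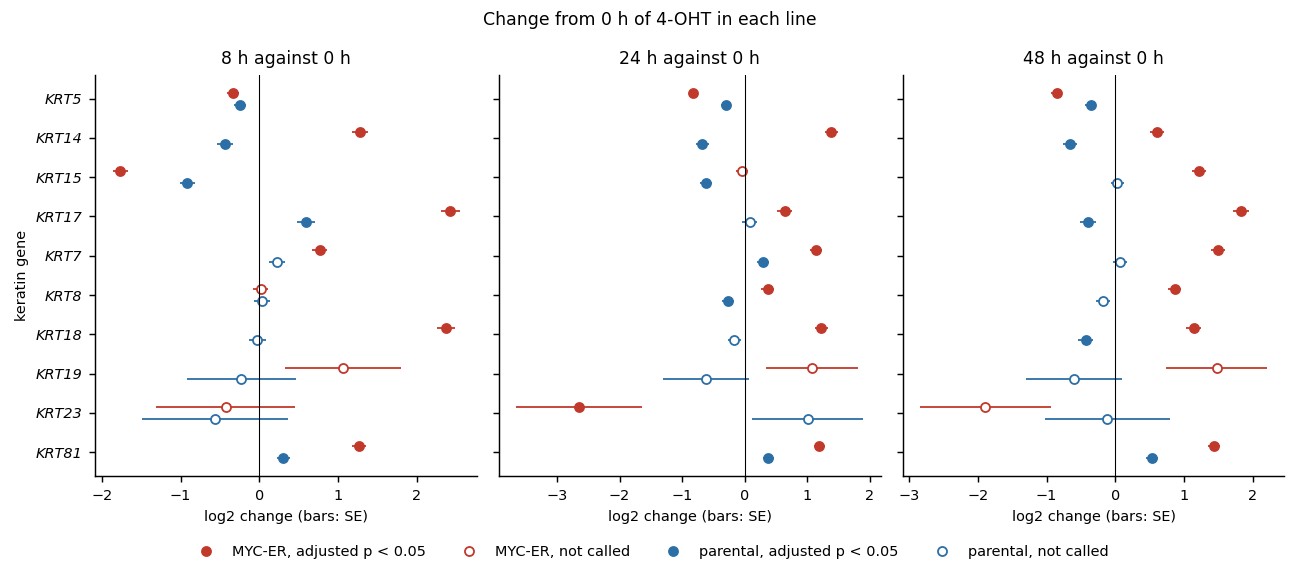
Log2 change from 0 h of each keratin at 8, 24 and 48 h, red for MYC-ER and blue for parental cells. Bars are standard errors derived from each log2 change and its F statistic, and filled points passed an adjusted p of 0.05 in edgeR's quasi-likelihood test over all genes. KRT14 lies on opposite sides of 0 in the 2 lines at each time, and KRT19 and KRT23 have the widest bars.

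By the end of the series the order of the lines had changed for some genes and not for others. At 48 h KRT15 was 5.60-fold and KRT8 4.58-fold higher in MYC-ER than in parental cells, KRT14 6.48-fold and KRT81 2.99-fold lower, and KRT18 did not differ past the threshold (log2 difference -0.06, adjusted p 0.668). KRT7, 2.27-fold lower at 0 h, was 1.19-fold higher at 48 h (adjusted p 0.0338). That last call was lost with trends on GC content and length removed (log2 0.08 in place of 0.25, adjusted p 0.279) and with no filter on low counts (adjusted p 0.066). It was also lost without any 1 of 4 libraries, for example parental 48 h replicate 1 (log2 0.16, adjusted p 0.187), the others being MYC-ER 48 h replicates 1, 2 and 3 (adjusted p 0.063, 0.0595 and 0.0881). Of the 10, 8 passed at 8 h (3 higher, 5 lower) against 48.6% of all genes (23.1% higher, 25.5% lower), 8 at 24 h (2 higher, 6 lower) against 49.4% (23.5% and 25.8%), and 7 at 48 h (3 higher, 4 lower) against 56.7% (27.3% and 29.4%). Between successive times in MYC-ER cells, 6 passed from 8 to 24 h (3 higher, 3 lower) against 55.5% of all genes (28.4% and 27.1%), and 6 from 24 to 48 h (5 higher, 1 lower) against 53.7% (28.2% and 25.5%).

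The spread of group means over the 8 groups differed between members. The highest group mean was 15.5 times the lowest for KRT14, 10.8 times for KRT15, 10.02 times for KRT17, 8.06 times for KRT81, 5.18 times for KRT18, 4.85 times for KRT8, 2.83 times for KRT7 and 1.92 times for KRT5. In the order of KRT14 levels the 4 parental groups came before the 4 MYC-ER groups, and the neighbours that overlapped were the parental groups at 24 and 48 h and the MYC-ER groups at 24 and 8 h. For KRT8 the order of the lines was the reverse, from MYC-ER at 48 h down to parental at 24 h, with the 4 parental groups overlapping in turn, as did MYC-ER at 8 and 0 h. For KRT15 MYC-ER at 48 h was highest and parental at 8 h lowest. For KRT18 MYC-ER held both the highest group, at 8 h, and the lowest, at 0 h.

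Across the 24 libraries, which fall into 8 groups and share them, KRT14 and KRT81 had a Pearson correlation of log2 CPM of 0.926, KRT17 and KRT81 of 0.855, KRT15 and KRT8 of 0.805, and KRT14 and KRT8 of -0.871. KRT8 and KRT18, the classic pair, had -0.178, and KRT5 and KRT14 had 0.449. Among genes that are not keratins and reach 10 CPM, those among the most like each member over the same libraries were HTRA1 (0.962) and C1orf216 (0.958) for KRT5, PCSK7 and SERINC2 (both 0.988) for KRT14, MCCC1 (0.984) and NOA1 (0.981) for KRT15, and IER5 (0.985) and PTK6 (0.974) for KRT17. For the simple keratins they were STING1 (0.966) and HSD17B7 (0.946) for KRT7, CCDC113 (0.963) for KRT8, and SEPTIN9 (0.973) and KIFC3 (0.968) for KRT18. FHL1 (0.974) was among the genes most like KRT81. SEPTIN9, itself a cytoskeletal GTPase, read 142 CPM in untreated MYC-ER cells and 498, 246 and 216 CPM after 8, 24 and 48 h, close to KRT18 in course and level. The best matches of KRT19 (ETV1, 0.786) and KRT23 (XRRA1, 0.659) were weaker. These correlations describe group differences and within-group spread together.

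Genes that bind or anchor keratin filaments were read from a list of 16, all tested. In MYC-ER cells 9 were higher and 4 lower at 8 h, 8 and 5 at 24 h, and 6 and 4 at 48 h, where 67.6%, 61.6% and 44.1% of all genes passed, with median log2 changes of 0.43, 0.17 and 0.07. In parental cells 2 were higher and 5 lower at 8 h, 3 and 7 at 24 h, and 3 and 8 at 48 h, against 31%, 42.9% and 40.5% of all genes. PKP2, a desmosomal plaque protein, rose from 30.2 CPM to 192 at 8 h (log2 change 2.67). SFN, the 14-3-3 sigma protein that binds KRT17, rose from 350.3 to 1128 CPM at 8 h (1.69) and was back at 327 CPM at 24 h. DSP, the desmoplakin that ties keratins to desmosomes, fell from 3081 to 1265 CPM (-1.28), and PPL, periplakin, from 195 to 45.0 CPM at 8 h (-2.12) before it stood at 207 CPM at 48 h. VIM, the intermediate filament protein of mesenchymal cells, which MCF-10A also expresses, rose at each time, by 1.81, 2.25 and 2.43, from 164 to 884 CPM. Parental cells had VIM changes of 0.86 and 0.79 at 24 and 48 h.

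Epithelial transcription factors, some of which are known to act on keratin genes, were read from a list with 16 tested genes. The counts in MYC-ER cells stand against 32.2% of all genes higher and 35.4% lower at 8 h, 30.4% and 31.2% at 24 h, and 23.4% and 20.7% at 48 h, here and for the marker lists. Of the factors 5 were higher and 8 lower at 8 h, 4 and 8 at 24 h, and 7 and 4 at 48 h, with median log2 changes of -0.28, -0.21 and 0.06. The ETS factors EHF and ELF3 were lowest at 8 h and highest at 48 h, as KRT15 was: EHF read 24.1, 1.18, 6.95 and 26.6 CPM at the 4 times and ELF3 5.98, 0.301, 0.609 and 22.3 CPM. GRHL3 rose from 1.55 to 13.5 CPM at 8 h (log2 change 3.12) and TEAD4 from 11.2 to 43.8 CPM (1.96). TP63, the master regulator of basal epithelium, was lower at 8 h (-0.81) and did not pass the threshold at 24 h (-0.19) or 48 h (-0.02). Of the 13 basal markers, 5 were higher and 7 lower at 8 h, 5 and 6 at 24 h, and 4 and 6 at 48 h. S100A2 (490.1 to 5814 CPM at 8 h) and LAMB3 (155 to 1516) rose at 8 h, as KRT17 did, while DST, which anchors keratins at hemidesmosomes, fell from 1261 to 254 CPM. Among luminal markers 3 were higher and 3 lower at 8 h, 4 and 5 at 24 h, and 5 and 1 at 48 h. Their median log2 changes were -0.03, -0.30 and 0.795. Their sum was 162 to 172 CPM at 24 h, against 186 to 197 CPM at 0 h. EPCAM, an adhesion protein of simple epithelium, moved against that median and rose from 1.93 to 75.8 CPM at 24 h (5.29).

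The keratins outside the 10 were counted from the same fit. Of 6 tested other type I keratins none was higher and 3 were lower in MYC-ER cells at 8 h, 0 and 2 at 24 h, and 1 and 4 at 48 h. Of 21 tested other type II keratins 11 were higher and 1 lower at 8 h, 6 and 3 at 24 h, and 5 and 5 at 48 h. Of all genes 67.6%, 61.6% and 44.1% passed at these times (32.2% higher and 35.4% lower at 8 h, 30.4% and 31.2% at 24 h, 23.4% and 20.7% at 48 h). Most of these keratins were low. Those other than KRT6A, KRT6B, KRT6C, KRT16 and KRT10 together held 0.348 to 0.458% of the level per coding kilobase in MYC-ER groups. KRT10 fell, with log2 changes of -2.50, -6.14 and -5.88, as did KRT16, with -2.48, -5.61 and -4.48. KRT6A rose by 1.64 at 8 h and was below its 0 h level at 48 h (-0.79). Of the type I members KRT14, KRT17 and KRT18 rose at 8 h, while KRT15 fell, as KRT10 and KRT16 did.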

How the data were processed

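The deposited table holds raw counts per gene, which the authors made from stranded, polyA-selected, 150-base paired-end libraries, per the labels. The submitters' processing notes name Trimmomatic 0.39, STAR, StringTie 2.1.3b and GRCh38 without their roles. The annotation release, the strand setting and the treatment of reads matching several genes are not given in the sources used here, and a StringTie count may be derived from coverage. Libraries held 136860029 to 182438505 counts, where 3 counts are 0.0164 to 0.0217 CPM.

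Counts were tested with edgeR 4.0.16 (R 4.3.3, limma 3.58.1): filterByExpr, TMM, quasi-likelihood fit of all 24 libraries with a mean for each group, 15 contrasts, Benjamini-Hochberg adjustment per contrast and a threshold of 0.05. The script was tested on simulated data. Each SE of a log2 change is its absolute value divided by the square root of the quasi-likelihood F statistic. Log2 CPM for correlations used a prior count of 2. Members and gene lists were chosen with earlier results of these data known. All 10 members are named, then list genes with large changes that reach 10 CPM, and the 2 most similar genes per member, of which some are not reported here. Coding lengths, loci and sequences are from GENCODE v29 on GRCh38. Alternatives were other scalings, filters and spreads, DESeq2 1.42.0, GC and length trends removed, a replicate block and each library left out. Replicates differed beyond sampling noise (chi-square per degree of freedom 8.46 to 258 over 24 pairs), so none was counted as a repeat.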

Additional observations from a re-analysis of the deposited data

Results flagged for a closer look

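For the keratins below, the change from 0 h differed between the lines by the test of the interaction itself in edgeR's quasi-likelihood fit (MYC-ER change minus parental change, log2, with adjusted p over all genes). Each line has 3 libraries at each time, and the interactions at 8, 24 and 48 h share the 0 h libraries.

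KRT14, the basal partner of KRT5, had 1.72, 2.06 and 1.26 at 8, 24 and 48 h (adjusted p 1.67e-09, 9.92e-11 and 4.95e-07), the last 0.69 with trends on GC content and length removed. KRT5 had -0.52 and -0.50 at 24 and 48 h (adjusted p 0.000333 and 0.000822), or -0.81 and -0.88 with trends removed, where the 8 h value also passed (-0.24, adjusted p 0.0391), as it did under library size alone (-0.21, adjusted p 0.0374). KRT15 changed side, with -0.85, 0.58 and 1.19 at the 3 times (adjusted p 1.29e-05, 0.00101 and 3.92e-07). KRT17 had 1.83 at 8 h (adjusted p 3.31e-09), 0.56 at 24 h (adjusted p 0.00582; 0.16 with trends removed) and 2.23 at 48 h (adjusted p 5.03e-10).

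Among the simple keratins, KRT18 had 2.40, 1.39 and 1.57 (adjusted p 1.74e-11, 8.54e-08 and 4.01e-08). KRT8 had 0.63 at 24 h (adjusted p 0.000574; 0.39 with trends removed) and 1.05 at 48 h (adjusted p 3.37e-06). KRT7 had 0.54, 0.85 and 1.43 (adjusted p 0.00193, 1.82e-05 and 3.56e-08), or 0.27, 0.35 and 0.83 with trends removed. KRT81, the hair keratin, had 0.96, 0.81 and 0.90 (adjusted p 6.95e-07, 7.09e-06 and 4.19e-06), or 0.35 and 0.34 at 24 and 48 h with trends removed.

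KRT23 had -3.65 at 24 h (adjusted p 0.0261) on at most 47 counts. That call was lost when leaving out MYC-ER 0 h replicate 2 (adjusted p 0.0507), MYC-ER 24 h replicate 1 (adjusted p 0.0597) or 2 (adjusted p 0.0613), or parental 0 h replicate 1 (adjusted p 0.0523) or 2 (adjusted p 0.0536). KRT19 did not pass at any time, but without MYC-ER 0 h replicate 2 it had 2.93, 3.34 and 3.71 (adjusted p 0.0158, 0.00722 and 0.00478).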

How the results depend on the processing

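Of 2475 refits of single keratins, 2329 kept direction and side of the threshold, 62 lost a call, 29 gained one and 55 reversed. All 55 reversals were of values not past the threshold in the reported fit, and their cause was not tested. Low counts limit KRT23, which had at most 47 in a library. With only the groups compared, 1, 3 and 2 keratins passed in parental cells at 8, 24 and 48 h in place of 5, 6 and 5, where the fit used fewer libraries. The 3 at 24 h include KRT19, which did not pass in the reported fit. With trends on GC content and length removed 3 passed at 48 h. No pairing by replicate number was found at a cutoff of 0.1: in 0 of 36 pairs of same-numbered libraries were deviations from the group means correlated above it. Of 24 libraries, 12 correlated best with their own number, so this check cannot exclude a weaker pairing. With the replicate block the number of keratins passing was the same in all 15 comparisons, for example 7, 8 and 8 in MYC-ER cells at 8, 24 and 48 h. Leaving out parental 0 h replicate 2 brought past the threshold the falls of KRT18 at 24 h (-0.32, adjusted p 0.00486) and KRT8 at 48 h (-0.32, adjusted p 0.00212) in parental cells. The order per length with protein lengths was not run, and whole transcript lengths were used instead, chosen after seeing the data.

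With those trends removed, the reversed values were 0.074 for KRT15 in MYC-ER cells from 0 to 24 h, 0.15 and 0.17 for KRT18 in parental cells at 24 and 8 h, -0.11 for KRT19 in MYC-ER cells from 8 to 24 h, 0.13 for KRT19 and 0.066 for KRT23 in parental cells at 8 and 48 h, 0.20 for KRT5 between lines at 0 h and 0.051 for KRT8 in parental cells at 48 h. Under library size alone they were 0.077 for KRT15 (0 to 24 h), 0.087 for KRT18 between lines at 48 h, 0.013 for KRT18 in parental cells at 8 h, -0.010 for the KRT23 interaction at 8 h, 0.010 for KRT5 (24 to 48 h), -0.074 for KRT8 (0 to 8 h) and 0.13 for KRT81 (8 to 24 h). Upper-quartile scaling gave -0.014 for KRT15 at 48 h, -0.0064 for KRT17 at 24 h and -0.0052 for KRT8 at 8 h in parental cells, 0.084 for KRT18 between lines at 48 h, and 0.041 for KRT5 (24 to 48 h), -0.12 for KRT8 (0 to 8 h) and 0.024 for KRT81 (8 to 24 h) in MYC-ER cells. KRT8 from 0 to 8 h was -0.018 with at least 10 counts required and -0.069 with its pseudogenes added. Its interaction at 8 h was 0.005 with DESeq2 size factors and with DESeq2's Wald test. KRT15 from 0 to 24 h was 0.0033 with only the groups compared, and KRT23 in parental cells at 48 h was 0.027 with the replicate block.

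Leaving out 1 library at a time, values that reversed ran from -0.12 to 0.0017 (KRT15, MYC-ER 0 to 24 h), -0.078 to 0.12 (KRT15, parental 48 h), -0.084 to 0.20 (KRT17, parental 24 h), -0.18 to 0.012 (KRT18 between lines, 48 h) and -0.17 to 0.10 (KRT18, parental 8 h). KRT19 in MYC-ER cells ran from -0.50 to 0.31 (8 to 24 h) and from -0.58 to 0.90 (24 to 48 h). KRT23 ran from -0.027 to 2.16 (MYC-ER 24 to 48 h), -0.54 to 0.63 (interaction, 8 h), -0.48 to 0.59 (parental 48 h) and -1.056 to 0.12 (parental 8 h). KRT7 ran from -0.094 to 0.20 (parental 48 h), and KRT8 from -0.003 to 0.046 (MYC-ER 0 to 8 h), -0.11 to 0.12 (interaction, 8 h) and -0.10 to 0.12 (parental 8 h).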
